A study of Mus musculus with 8 samples.

Results

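The Ly6 family described here comprises Ly6a, Ly6c1, Ly6c2, Ly6d, Ly6e, Ly6f, Ly6h and Ly6i, 8 mouse genes that all lie on chromosome 15. A probe set, the group of short probes that reads 1 transcript on an Affymetrix array, was taken when its annotated gene symbols held one of these names. That gave 7 of 45037 probe sets, which cover 7 of the 8 genes. The arrays name 18193 genes singly, a count that leaves out Ly6c1 and Ly6c2, which have no probe set of their own. Ly6a, which encodes Sca1, was not analysed here, because the annotation used here pairs no probe set with it, so the values below say nothing on the transcript of the sorted antigen itself. One probe set is annotated to both Ly6c1 and Ly6c2, and its signal cannot be divided between them. No probe sequences were used here, so how far each Ly6 probe set also binds transcripts of other members was not checked, and this limits what every signal below can be ascribed to.

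RNA came from 4 primary cultures of cells from mouse hind limb muscle, described as putative stem cells, and each culture was hybridised to the MOE430A and the MOE430B array. Preplating was used for the 2 PP6 cultures, replicates 2 and 3, a method that parts cells by how quickly they attach to a dish. No purity was estimated for them, and RNA was taken from 6500000 and 6700000 cells. The 2 MACS cultures, also replicates 2 and 3, were bead-sorted as Sca1-positive, CD45-negative cells, and flow cytometry put Sca1-positive cells at over 80% and CD45-positive cells at under 1%, and RNA was taken from 1980000 and 2040000 cells. The RNA concentration was 35 and 15 ng per µl in PP6 replicates 2 and 3, against 55 and 65 in MACS replicates 2 and 3. It was lower in both PP6 cultures, so it cannot be told apart from the purification, and its part was not tested. All 4 cultures grew in F10 Ham medium with 20% serum, and muscle cells are named as the contaminating cells of both preparations. Strain, age and sex are not given in the sources used here. As nothing in the labels says that replicates came from separate animals, p-values measure only the spread between these cultures.

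Ly6 proteins are small surface proteins with a fold of finger-like loops held together by disulfide bonds, and most are tied to the membrane by a glycosylphosphatidylinositol (GPI) lipid anchor. In the mouse they are used as markers in cell sorting. Sca1 marks haematopoietic stem cells, endothelium and the fibro-adipogenic progenitors of muscle, and Ly6C marks monocytes, neutrophils and some endothelial cells. Several members, among them Ly6a, Ly6c1 and Ly6e, are induced by interferon.

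The Ly6c probe set carried the largest difference of the 3 that could be tested, so windows at the transcript starts of its 2 genes are shown first. RefSeq on GRCm38.p6 supplied 5 windows for 3 of the 8 members, Ly6c1, Ly6c2 and Ly6f. The window of Ly6c1 lies at chr15:75048788-75049087 and that of Ly6c2 at chr15:75111922-75112221, both on the minus strand and 300 bases long. They run 5′ to 3′ and capitals mark the longest run of bases that both share, 20 bases.
Ly6c1: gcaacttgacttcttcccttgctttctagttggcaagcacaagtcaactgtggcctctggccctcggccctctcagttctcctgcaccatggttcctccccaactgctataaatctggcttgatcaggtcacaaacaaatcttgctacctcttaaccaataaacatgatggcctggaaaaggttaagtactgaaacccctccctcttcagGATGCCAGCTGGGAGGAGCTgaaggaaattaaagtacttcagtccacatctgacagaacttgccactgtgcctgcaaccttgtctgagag
Ly6c2: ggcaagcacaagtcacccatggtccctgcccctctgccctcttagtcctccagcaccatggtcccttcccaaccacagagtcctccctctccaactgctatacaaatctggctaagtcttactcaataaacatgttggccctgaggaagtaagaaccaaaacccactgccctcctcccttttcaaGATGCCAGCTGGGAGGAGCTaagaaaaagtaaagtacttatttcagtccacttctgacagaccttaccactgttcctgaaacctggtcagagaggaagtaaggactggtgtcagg

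The windows of Ly6c1 and Ly6c2 were 78.2% identical over 266 aligned bases, and that of Ly6f was 83.9% identical to either. They were searched on both strands for GAAANNGAA, a shortened core of the interferon-stimulated response element, and for TTCNNNGAA, the gamma-activated site. Neither set of letters occurred in any of the 5 windows, against 8.56% and 8.30% of all 32851 such windows. This says only that these letters are not in these stretches.

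Of the 7 Ly6 probe sets, 3 lay above the median of their array in all 4 cultures, the Ly6c probe set and both probe sets of Ly6e. The other 4, for Ly6i, Ly6f, Ly6d and Ly6h, lay below it in all 4 cultures. Only the first 3 met the requirement for testing, a signal above the array median in at least 2 cultures. With limma, 0 of the 3 passed an adjusted p of 0.05, as did 0% of the 23963 tested probe sets. At an unadjusted p under 0.05 the count was 1 of 3, against 11.5% of all tested probe sets. The smallest two-sided p that an exact permutation test can reach with 2 cultures a group is 33.3%.

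**Figure D1:**
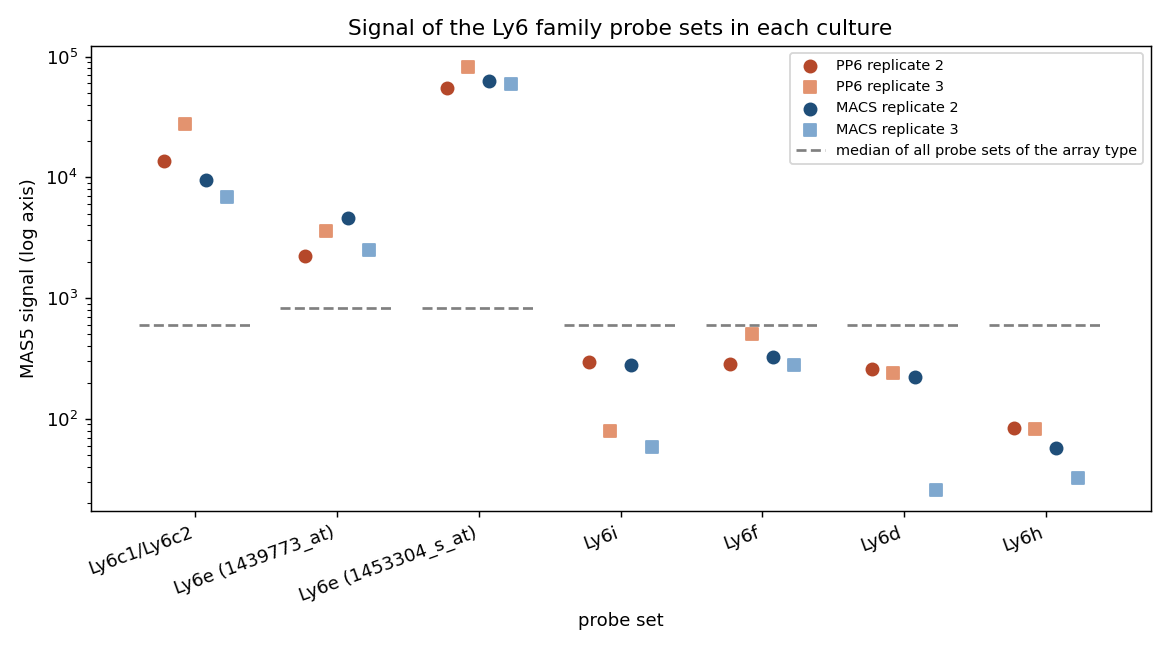
MAS5 signal (log axis) of the 7 Ly6 probe sets in the 2 PP6 and the 2 MACS cultures, 1 point per culture, with a dashed line at the median signal of the array type. The Ly6c and Ly6e points all lie above the line, and those of Ly6i, Ly6f, Ly6d and Ly6h all lie below it.

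Ly6C, a surface antigen of monocytes, neutrophils and some endothelial cells, had the higher transcript signal in PP6. The shared Ly6c1 and Ly6c2 probe set 1421571_a_at read 13721 and 27482 in PP6 replicates 2 and 3, against 9565 and 6913 in MACS replicates 2 and 3. Both PP6 cultures lay above both MACS cultures, and PP6 replicate 3 was the highest by far. The signal was strong in MACS too. Among the probe sets of its array, this probe set stood at percentiles 97.2 and 98.7 in PP6, and 95.7 and 93.9 in MACS. On the log2 scale the means were 14.25 ± 0.71 in PP6 and 12.99 ± 0.33 in MACS (SD, n = 2 each).

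The Ly6c difference was 1.26 ± 0.38 log2 units (SE), or 2.39-fold, with a 95% interval of 0.32 to 2.19. It had an unadjusted limma p of 0.0173 and an adjusted p of 0.362, so it did not pass the threshold over all probe sets. Over the alternatives that kept all 4 cultures, the adjusted limma p ran from 0.178 to 0.496. A larger positive difference was found for 1033 of the 23963 tested probe sets, or 4.31%. Groups that did not overlap, with PP6 higher, were found for 22.5% of them.

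The size of the Ly6c difference rested on single cultures. PP6 replicate 3 read 2.00 times PP6 replicate 2, and the higher of the MACS cultures read 1.38 times the lower. The lowest PP6 signal was 1.43 times the highest MACS signal, and the highest PP6 signal was 3.98 times the lowest MACS signal. Without PP6 replicate 3 the log2 difference was 0.75, and without PP6 replicate 2 it was 1.76. Without MACS replicate 3 it was 1.02, and without MACS replicate 2 it was 1.49. Each of these leaves 1 culture in a group, whose spread is then not measured, so no p-value is given for them.

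**Figure D2:**
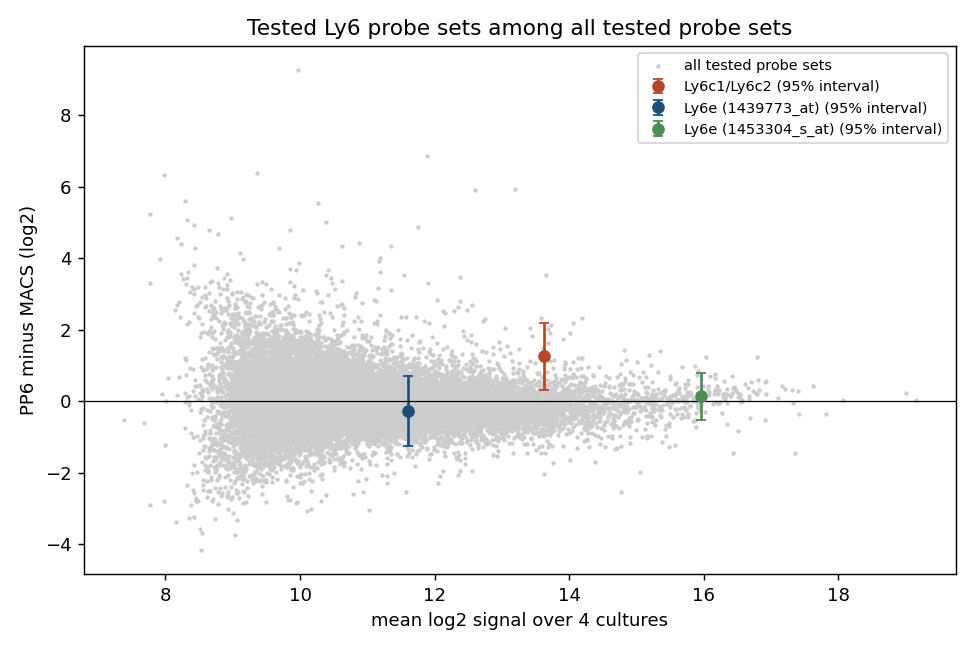
Difference in log2 signal, PP6 minus MACS, against the mean log2 signal over the 4 cultures for all 23963 tested probe sets (grey), with the 3 tested Ly6 probe sets and their 95% intervals. The interval of Ly6c1/Ly6c2 runs from 0.32 to 2.19 and lies above 0, and those of both Ly6e probe sets span 0.

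Ly6e, a GPI-anchored protein first described on thymocytes and induced by interferon, had a strong signal in every culture and no difference beyond the spread. Probe set 1453304_s_at read 55004 and 81763 in PP6, against 62484 and 58857 in MACS. Among the probe sets of its array it stood between the 99.86th and the 99.94th percentile in the 4 cultures. PP6 supplied both the highest and the lowest of these signals, so the groups overlapped.

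The log2 difference of Ly6e at 1453304_s_at was 0.15 ± 0.27 (SE), with a 95% interval of -0.51 to 0.80 and an adjusted limma p of 0.868. The second probe set of Ly6e, 1439773_at, read 2230 and 3598 in PP6, against 4574 and 2516 in MACS. The groups overlapped here too, with MACS replicate 2 the highest and PP6 replicate 2 the lowest. Its difference was -0.26 ± 0.40 (SE), with a 95% interval of -1.24 to 0.72 and an adjusted limma p of 0.839.

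The 2 probe sets of Ly6e thus differed in sign, and both intervals hold 0. With 1 culture left out, the difference of 1453304_s_at ran from -0.14 to 0.43 and that of 1439773_at from -0.69 to 0.17. The suffix _s_at marks a probe set that can match several transcripts.

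**Figure D3:**
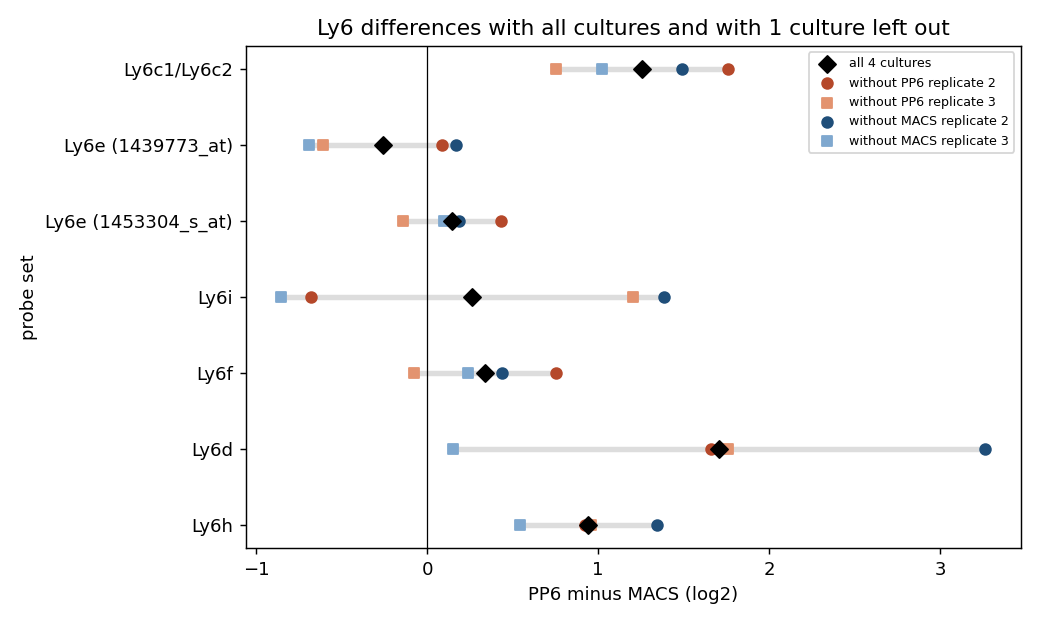
Difference in log2 signal, PP6 minus MACS, of each Ly6 probe set with all 4 cultures (diamonds) and with each culture left out in turn (coloured points, joined by a bar from the lowest to the highest). Only Ly6c1/Ly6c2, Ly6d and Ly6h stay above 0 throughout, and Ly6d runs from 0.15 to 3.26.

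The 4 dim members had signals from 25.9 to 508, below the array median throughout, and the tables hold no detection calls, so none of them is shown to be expressed or absent. They had no part in the tests above, and their p-values come from a fit with no filter. Ly6d, an antigen of keratinocytes and of early B lineage cells, read 257 and 241 in PP6, against 224 and 25.9 in MACS. The groups did not overlap, but 3 of the 4 readings lay close together and only MACS replicate 3 stood apart. Its log2 difference of 1.71 had a 95% interval of -1.20 to 4.62 in the fit with no filter and was 0.15 without MACS replicate 3.

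Ly6h, a brain-enriched member that binds nicotinic acetylcholine receptors, read 83.9 and 82.0 in PP6, against 57.01 and 32.70 in MACS. The PP6 readings were nearly equal and above both MACS readings. The log2 difference was 0.94, with a 95% interval of -0.93 to 2.82 in the fit with no filter, and 0.54 without MACS replicate 3.

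Ly6f read 285 and 508 in PP6, against 323 and 281 in MACS, and PP6 replicate 3 alone stood above the rest. Its log2 difference was 0.34, or -0.08 without PP6 replicate 3. Ly6i read 294 and 79.9 in PP6, against 277 and 58.8 in MACS. For Ly6i both replicates 2 were high and both replicates 3 were low, whichever way the cells had been purified. The spread within PP6 was 3.69-fold and that within MACS 4.71-fold, against 1.20-fold between the group means.

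Over all 7 Ly6 probe sets, 6 differences were positive and 1 was negative, where the median difference of all 45037 probe sets was 0.07 log2 units. Those of Ly6i, Ly6f and both Ly6e probe sets changed sign with 1 culture left out. The groups did not overlap for 3 of them, Ly6c, Ly6d and Ly6h, against 40.6% of all 45037 probe sets. In the fit with no filter, the adjusted limma p of the 4 dim members ran from 0.71 to 0.961.

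Neutrophil and leukocyte genes, which mark some of the cells known to carry Ly6C, had higher signals in PP6 than in MACS, as the Ly6c probe set did, and so had muscle differentiation genes. All 14 tested neutrophil genes and all 18 tested leukocyte genes had a positive difference, with medians of 4.40 and 2.10 log2 units, where the median of all 12278 tested genes was 0.02. At an unadjusted p under 0.05, 12 of the 14 and 17 of the 18 were higher in PP6, against 5.81% of all tested genes. After adjustment over all probe sets 0 of them passed. The requirement for testing fixed the sign of any gene that was dim in both MACS cultures. Such a gene entered only by being bright in both PP6 cultures, as Ptprc, Cd53, S100a9 and Chil3 did. The counts include such genes, and the lists were chosen with earlier results of these data known.

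The summed signal of the neutrophil genes was 129548 and 463242 in PP6 replicates 2 and 3, against 6761 and 12277 in MACS. That of the leukocyte genes was 37870 and 103159 in PP6, against 16761 and 17985 in MACS. Both sums are over tested genes, some of which entered only by being bright in both PP6 cultures. PP6 replicate 3 was the highest culture on both sums, as it was for Ly6c, at 3.58 and 2.72 times PP6 replicate 2, where the Ly6c ratio was 2.00. Within MACS the order was not shared, since both sums were the higher in replicate 3, the leukocyte sum by little, and the Ly6c signal was the higher in replicate 2.

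Muscle differentiation genes, which encode the contractile and calcium-handling proteins of muscle fibres, had the same order in PP6. All 11 tested genes read higher in PP6 on the mean, the median difference was 3.12 log2 units, and 10 were higher at an unadjusted p under 0.05, against the 5.81% of all tested genes. None passed after adjustment (0 of 11). Here too the requirement for testing fixed the sign of genes dim in both MACS cultures, among them Acta1, Tnnc1 and Tnnt1. Their summed signal was 31487 and 67120 in PP6, against 7635 and 12796 in MACS, and PP6 replicate 3 was at 2.13 times PP6 replicate 2. Acta1, the skeletal muscle actin gene, read 4762 and 15970 in PP6, against 361 and 459 in MACS, where it was below the array median. The part of the neutrophil, leukocyte and muscle differentiation genes in the Ly6c difference was not tested. In bulk RNA, fewer cells of a type and less RNA per cell cannot be told apart.

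Ptprc, which encodes the CD45 antigen used for depletion, read 837 and 2769 in PP6, against 305 and 407 in MACS, where it lay below the array median. Ngp, a neutrophil granule gene, read 43645 and 123815 in PP6, against 852 and 1680 in MACS. Ncf1, a gene of the phagocyte oxidase, read 6760 and 17252 in PP6, against 1773 and 2100 in MACS, above the array median in all 4 cultures. Leukocyte genes thus lay on both sides of the array median in MACS.

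Endothelial genes, whose cells can also carry Ly6C and Sca1, pointed the other way. Of 17 tested genes 14 had a negative difference, with a median of -0.36. At an unadjusted p under 0.05, 5 were lower and 0 higher, against 5.44% of all tested genes lower. The summed endothelial signal was 98387 and 94580 in PP6, against 178825 and 142871 in MACS. The 4 with the smallest p were Mmrn2, Vwf, Sox17 and Erg, with differences of -1.29, -1.04, -1.09 and -1.33. Their adjusted limma p ran from 0.306 to 0.384, and 3 of the 17 genes had a positive difference. The adhesion molecule gene Pecam1 read 1069 and 913 in PP6, against 1274 and 1144 in MACS, with an adjusted limma p of 0.775.

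**Figure D4:**
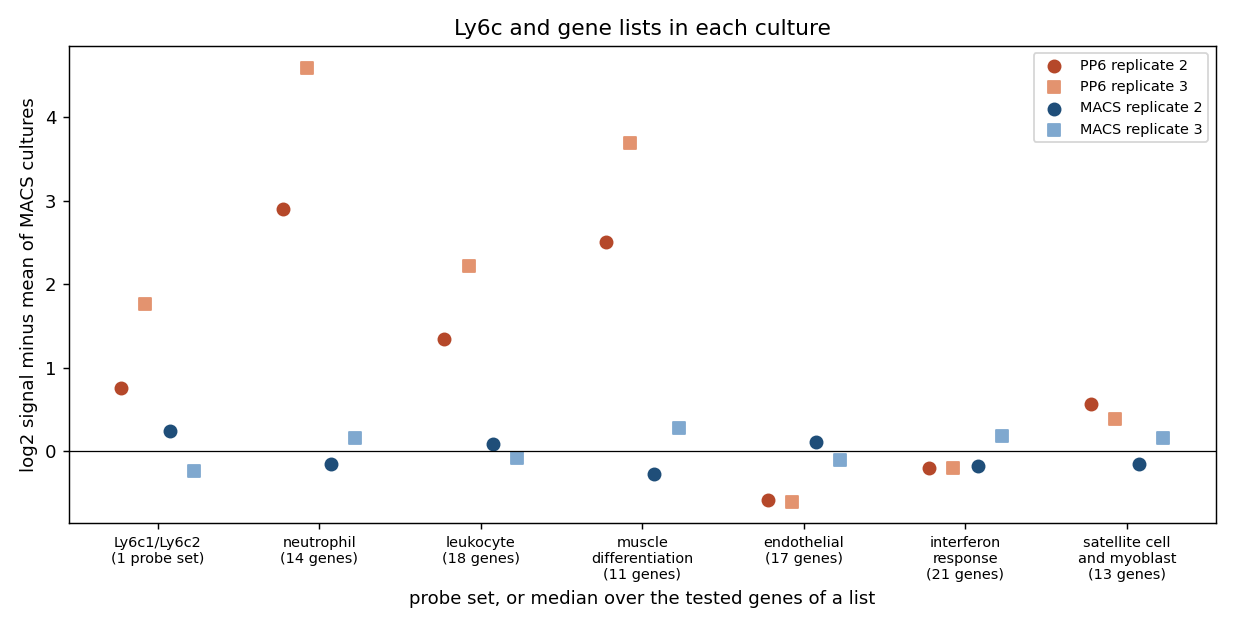
Log2 signal of the Ly6c1/Ly6c2 probe set, and the median log2 signal over the tested genes of 6 lists, in each culture, as the difference from the mean of the MACS cultures. PP6 replicate 3 is the highest culture for Ly6c (1.76), the neutrophil genes (4.60), the leukocyte genes (2.22) and the muscle differentiation genes (3.70), and both PP6 cultures are below both MACS cultures for the endothelial genes. The neutrophil, leukocyte and muscle differentiation lists include genes that were tested only because they were bright in both PP6 cultures.

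Genes of the cells in which muscle Sca1 is best known were mixed in sign, with a summed signal that was higher in PP6. The sum was 207749 and 194833 in PP6, against 92743 and 139779 in MACS. Dcn alone read 110604 and 94544 in PP6, against 36051 and 52553 in MACS. Of 13 tested fibro-adipogenic and mesenchymal progenitor genes 8 had a positive and 5 a negative difference, with a median of 0.63 log2 units. At an unadjusted p under 0.05, 5 were higher and 0 lower, against 5.81% and 5.44% of all tested genes. The 4 with the smallest p were all higher in PP6, the matrix genes Col1a1 and Dcn, the actin-binding gene Gsn and the surface antigen gene Thy1, with differences of 2.17, 1.23, 1.14 and 1.01. Col1a1 read 5996 and 3863 in PP6, against 874 and 1316 in MACS, with an adjusted limma p of 0.264. Pdgfra, the receptor gene that marks these progenitors, read 5955 and 5488 in PP6, against 5059 and 6218 in MACS. The groups overlapped, and the difference was 0.03 ± 0.22 log2 units (SE). Cd34, a sialomucin gene of progenitors and endothelium, read 3639 and 3475 in PP6, against 7931 and 4592 in MACS. Both PP6 readings were lower, with a difference of -0.76 ± 0.31 and an adjusted limma p of 0.441.

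Satellite cell and myoblast genes, which mark the precursors of muscle fibres, were also mixed. Of 13 tested genes 8 had a positive and 5 a negative difference, with a median of 0.28 log2 units. The unadjusted p was under 0.05 for 3 higher and 1 lower in PP6, against 5.81% and 5.44% of all tested genes. After adjustment 0 passed. The 3 were Myog, a regulator of differentiation, Des, which encodes desmin, and Mymk, a gene of myoblast fusion, with differences of 2.26, 1.27 and 3.29. The requirement for testing fixed the sign of Mymk, which was dim in MACS at 103 and 516, against 1616 and 3153 in PP6. Myog read 5184 and 12552 in PP6, against 1450 and 1959 in MACS. The 1 that was lower was Pax7, the satellite cell regulator, which read 881 and 1520 in PP6, against 2673 and 4382 in MACS, a difference of -1.56. Myod1, the myoblast regulator, read 7802 and 5178 in PP6, against 7733 and 6772 in MACS, and the groups overlapped.

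Interferon response genes had the highest summed signal in MACS replicate 3. The sum was 88741 and 97976 in PP6, against 90058 and 141788 in MACS, so the other MACS culture lay between the PP6 cultures. The median log2 signal over the list was 11.43 in both PP6 cultures, against 11.45 and 11.81 in MACS. Of 21 tested genes 5 had a positive and 16 a negative difference, with a median of -0.25 log2 units. At an unadjusted p under 0.05, 0 were higher and 1 was lower, the antiviral gene Rsad2, against 5.44% of all tested genes lower. The groups did not overlap for 6 of the 21 genes, all lower in PP6, against 2690 of all 12278 tested genes lower in PP6 without overlap. Rsad2 read 7979 and 9061 in PP6, against 12669 and 33392 in MACS, where MACS replicate 3 stood far above the rest. Ifit1, another antiviral gene, read 1966 and 2760 in PP6, against 3701 and 3463 in MACS, with an adjusted limma p of 0.465.

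Relatives of the family that share its fold were measured beside it. Of 36 listed genes 25 had a probe set of their own and 13 were tested, 8 with a positive and 5 with a negative difference and a median of 0.23 log2 units. At an unadjusted p under 0.05, 1 of the 13 was higher and 1 lower, against 5.81% and 5.44% of all tested genes. After adjustment 0 passed. Gpihbp1, which holds lipoprotein lipase on capillary endothelium, read 16107 and 12490 in PP6, against 6469 and 7107 in MACS. The groups did not overlap, and the difference was 1.06 ± 0.22 log2 units (SE) with an unadjusted limma p of 0.0035 and an adjusted p of 0.309.

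Plaur, the urokinase receptor gene, read 2875 and 2952 in PP6, against 5432 and 4123 in MACS, a difference of -0.70 ± 0.24 log2 units (SE). Both PP6 readings were below both MACS readings, and the adjusted limma p was 0.398. Cd59a, whose protein blocks the last step of complement lysis, read 2873 and 1523 in PP6, against 1117 and 1619 in MACS, and the groups overlapped. Among the genes that build the GPI anchor and attach it to proteins, 24 of 30 were tested, 17 with a positive and 7 with a negative difference. Their median was 0.20, and 0 of them reached an unadjusted p under 0.05 in either direction.

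Patterns close to those of the bright members were looked for among 11339 tested genes, leaving out clone-like symbols and the members, by the root mean square distance between log2 signals centred on their mean over the 4 cultures. The 5 genes nearest to the Ly6c probe set were Rassf10, Clec4a3, Kansl1l, Mdh1b and Gpnmb, at distances of 0.05 to 0.09 log2 units. Rassf10, the nearest, read 5897 and 12561 in PP6, against 4012 and 2960 in MACS. The 5 nearest to the brighter Ly6e probe set were Dnajb4, Fam219a, Npepps, Ddx20 and Zbtb44, at distances of 0.02 to 0.04. With 4 cultures such likeness is a description only.

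Across the series, the unadjusted p was under 0.05 for 1364 probe sets higher and 1396 lower in PP6. With arrays centred on their medians the split was 948 higher and 1983 lower, a setting that shifted the median over all tested probe sets by -0.12 log2 units. Relative to that shift the differences of Ly6c and of both Ly6e probe sets kept their sign, at 1.13, 0.03 and -0.38. Across tested probe sets the log2 signals of the PP6 cultures correlated at r = 0.839 and those of the MACS cultures at r = 0.858. Between a PP6 and a MACS culture r ran from 0.783 to 0.835, nearly as high as within PP6. These values are a description over probe sets, which are not replicates.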

How the data were processed

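The deposited values are linear signal intensities, 1 per probe set and array, made by the authors with MAS5 (version not stated), per the submitters' processing notes. Each array had a 2% trimmed mean of 1501 or 1500, so they had been scaled to 1 level before deposit. Other deposited files hold instrument settings only: within an array type all 4 arrays came from 1 lot and were run on 1 day, but the fluidics module differed for every culture, so module and culture cannot be told apart.

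Signals were set to a common trimmed mean, and log2 was taken without a pseudocount. Both array types went into 1 table, the 100 shared probe sets kept their MOE430A value, and 64 controls per type were left out. Probe sets were named through the platform annotation, with symbols updated by Entrez identifier to RefSeq. Ly6c1 and Ly6c2 are the only genes named from a probe set that carries more than 1 symbol. The difference between PP6 and MACS was fitted with limma 3.58.1 under R 4.3.3 (lmFit, eBayes, intensity trend), with two-sided p-values adjusted by Benjamini-Hochberg over 23963 probe sets. The procedure was tested on simulated data. Groups were taken from the sample titles. Lists used 1 probe set a gene, and the genes named were all members, up to 4 of each list with the smallest p, 6 fixed markers and the nearest patterns; Ngp, Ifit1 and Cd59a stand as examples from these. The members, lists and alternatives were chosen with earlier results of these data known. Sequences are from RefSeq. The number of arrays limits the precision.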

Additional observations from a re-analysis of the deposited data

How the results depend on the processing

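With 2 cultures a group, 0 of the 3 tested Ly6 probe sets passed an adjusted p of 0.05 under any of the 15 alternatives. Over all probe sets, where 0 passed, 5 passed with a filter at the 75th percentile, 23 with a floor at the array median and 71 with each array type fitted alone. With the replicate number as a block 2 passed, and the Ly6c difference had an adjusted limma p of 0.496; same-numbered cultures did not deviate together (r = -0.03 across probe sets), and nothing in the labels pairs them. Of 63 recomputed differences of single Ly6 probe sets, 57 kept their sign and 6 turned, all 6 with 1 culture left out. Many of the 57 could not turn. Changing the filter, the intensity trend, the block or the array types fitted together leaves a difference as it was. The floor did so too for these probe sets, which lie above it. The ranges were -0.69 to 0.17 for Ly6e at 1439773_at, which was 0.085 without PP6 replicate 2, -0.14 to 0.43 for Ly6e at 1453304_s_at, -0.85 to 1.38 for Ly6i, which was -0.68 without PP6 replicate 2, and -0.078 to 0.76 for Ly6f. The cause was not tested. Without probe sets of the suffixes _x_at, _s_at and _a_at only 1 Ly6 probe set was tested, since that leaves out Ly6c and the brighter Ly6e. The 4 dim Ly6 probe sets could be fitted only with no filter. Detection calls were not used, and no signal below the array median can be read as expression or its absence.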
